A study of Homo sapiens with 4 samples.

Results

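The genes described here encode the kinase and ubiquitin ligase complexes that carry a signal from an activated receptor to NF-κB. They were taken as a named list of 10 genes, of 61541 genes in the deposited table, by a rule that uses no measured value. The list was nonetheless chosen with earlier results of these data known. CHUK, IKBKB and IKBKG make up the IKK complex, MAP3K7, TAB1 and TAB2 the TAK1 complex, and RNF31, RBCK1 and SHARPIN the linear ubiquitin ligase, whose chains OTULIN removes. All 10 genes were among the 16863 that passed a filter on low counts and were tested. RNA came from MHCC97H, an established human hepatocellular carcinoma (HCC) cell line, in 2 libraries of control cells (shCon) and 2 libraries of UBXN1-knockdown cells (shUBXN1). The short hairpin RNAs (shRNAs) of the study were delivered by lentivirus, and which UBXN1 shRNA the sequenced cells carried is not given in the sources used here. The sample labels name the control shCon, whereas the methods of the study name shRFP. The labels do not say whether the libraries of a group came from separate cultures, so the p-values below measure the spread between these libraries, which may be technical.

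When a receptor such as the TNF receptor binds its ligand, ubiquitin ligases build chains linked through lysine or through the first methionine of ubiquitin on the receptor complex. TAB2 binds the lysine-linked chains and brings the kinase TAK1, encoded by MAP3K7, to the complex, while the linear ubiquitin ligase adds methionine-linked chains that are bound by IKBKG, better known as NEMO. TAK1 then activates the kinases CHUK and IKBKB, which phosphorylate IκB proteins and so release NF-κB to the nucleus. UBXN1 is a UBX-domain protein that binds ubiquitin and the ATPase VCP, and the comparison of shUBXN1 with shCon asks how its loss changes gene expression in HCC cells.

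The libraries held 23373700 to 27380508 counts. UBXN1 was at 67.1 and 77.3 CPM (counts scaled to library size with the TMM method of edgeR, and comparable between libraries for 1 gene) in shCon and at 16.8 and 18.5 CPM in shUBXN1, which left 24.5% of the control level (log2 fold change -2.03, standard error 0.0963, edgeR adjusted p = 9.98e-10). The 3 UBXN1 shRNA target sequences listed by the study matched no member's canonical transcript in full, the longest shared runs being 6 to 10 bases. Whether an shRNA acted on a member through such short runs was not tested. Mitochondrial genes took 5.28% and 5.59% of the counts in the control libraries and 7.43% and 8.27% in the knockdown libraries. Of 12 liver and liver cancer markers, 10 had at least 10 counts in every library. Their summed level was 4461 to 4617 CPM in shCon and 3473 to 4063 CPM in shUBXN1, most of it from the keratin genes KRT8 and KRT18. The oncofetal gene GPC3 had 0 counts in every library, and EPCAM was below 1 CPM in each. Of these markers 6 fell at an adjusted p under 0.05 (ALB, APOB, TTR, TF, HNF4A and KRT8) and 2 rose, SERPINA1 and KRT18, with log2 fold changes of 0.40 and 0.31 (edgeR adjusted p = 0.0271 and 0.0116). Of 4 endothelial markers, PECAM1 and KDR alone had at least 10 counts in every library, and the list summed to 48.4 and 49.9 CPM in the shCon libraries and 92.6 and 99.5 CPM in the shUBXN1 libraries, whereas the defining marker CDH5 had 0 counts in both shUBXN1 libraries. The summed levels of 5 fibroblast markers were 33.1 to 33.2 CPM in shCon and 17.1 to 19.7 CPM in shUBXN1, most of it from LUM (31.7 and 32.3 CPM in shCon, 13.9 and 16.7 CPM in shUBXN1). The fibroblast marker COL1A1 moved the other way, from 0.375 and 0.170 CPM to 2.34 and 2.52 CPM (edgeR adjusted p = 5.83e-05). The summed levels of 5 blood cell markers were at most 1.54 CPM. The part of these shifts in the results below was not tested.

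TAB1, the member with the largest fall, and a pair that moved in opposite directions, CHUK and MAP3K7, are shown with the bases that lie before their start sites. The sequences are from RefSeq on GRCh38.p14, each in the direction of the gene, and stop short of annotated exons of protein-coding genes. Capitals mark the ETS core motif CCGGAAG, searched on both strands, and no other motif searched overlaps it in these stretches.
CHUK, minus strand, chr10:100229597-100229676: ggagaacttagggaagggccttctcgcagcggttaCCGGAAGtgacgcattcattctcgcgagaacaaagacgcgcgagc
MAP3K7, minus strand, chr6:90587087-90587166: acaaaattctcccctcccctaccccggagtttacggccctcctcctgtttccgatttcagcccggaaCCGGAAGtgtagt
TAB1, plus strand, chr22:39399698-39399777: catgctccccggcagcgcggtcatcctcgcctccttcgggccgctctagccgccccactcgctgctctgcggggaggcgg

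RefSeq promoter windows, from 250 bases before to 50 bases after a start, were matched for 8 of the 10 members and numbered 13, of which IKBKG had 4. The ETS core was found in 7 of the 13 windows, belonging to CHUK, MAP3K7, RBCK1, RNF31 and IKBKG, and in 10.3% of all 35116 windows of that length. A pair of the IKBKG windows overlap and share their matches in the overlap, so that stretch was counted in 2 of the 7 windows. In CHUK and MAP3K7, which changed in opposite directions, its first base lay at -45 and -27 from the start. TAB1 had no ETS core in its window. The NRF1 motif was found in 2 windows, those of TAB1 and OTULIN, and in 5.78% of all windows. The NF-κB consensus motif was found in 1 of the 13 windows, that of a second start of TAB2, against 5.91% of all windows. The E-box CACGTG was found in OTULIN (7.26% of all windows) and the cyclic AMP response element TGACGTCA in no member (1.85% of all windows). The CCAAT box stood in 4 windows of members and the GC box GGGCGG in 8, against 34.6% and 45.0% of all windows. A match is a run of letters and not evidence of binding.

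Levels of different genes can be compared only per length, as TPM (the length-scaled share of a library) from the gene lengths deposited with the counts. In shCon, IKBKG was highest at 121 ± 1.99 TPM (SD, n = 2), followed by RBCK1 at 61.5 ± 1.98 TPM and SHARPIN at 59.95 ± 5.29 TPM, whose libraries overlapped. TAB2 (31.0 ± 2.24 TPM), MAP3K7 (24.2 ± 1.002 TPM), CHUK (22.5 ± 1.48 TPM) and IKBKB (18.7 ± 0.485 TPM) came next, and MAP3K7 and CHUK did not differ beyond their spread. The lowest were TAB1 at 15.4 ± 0.0316 TPM, RNF31 at 13.4 ± 0.169 TPM and OTULIN at 8.96 ± 0.215 TPM. In shUBXN1, IKBKG was still highest at 66.0 ± 1.61 TPM, but SHARPIN (56.2 ± 3.88 TPM) and RBCK1 (54.5 ± 4.79 TPM) were then close to it. TAB1 moved to the bottom of the order at 6.68 ± 0.0888 TPM, below OTULIN at 8.76 ± 0.158 TPM. The middle of the order in shUBXN1 was TAB2 (36.2 ± 0.622 TPM), CHUK (29.5 ± 1.26 TPM), IKBKB (28.5 ± 1.02 TPM), MAP3K7 (20.8 ± 0.887 TPM) and RNF31 (11.7 ± 1.97 TPM), where CHUK and IKBKB overlapped.

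**Figure D1:**
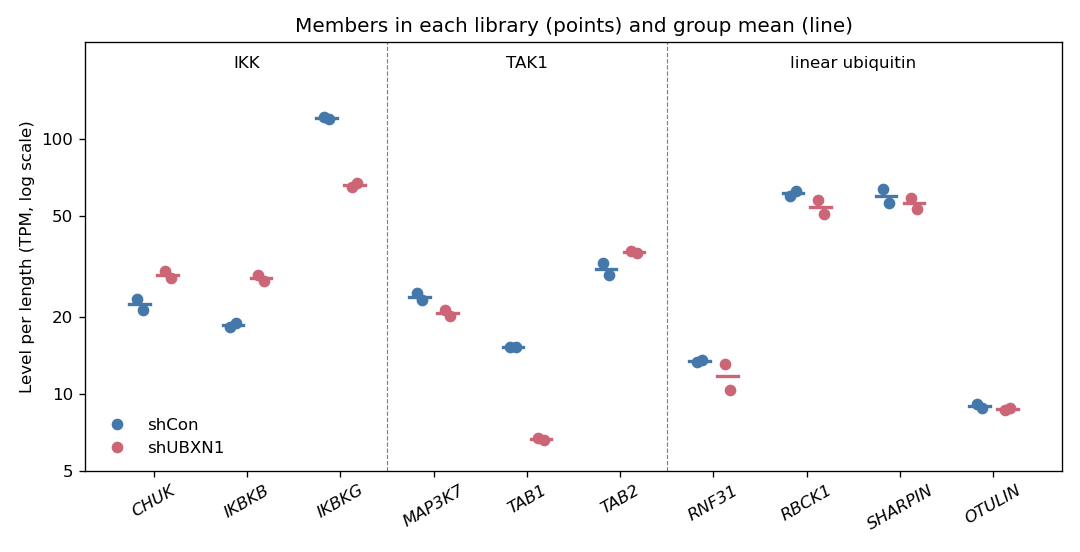
Level of each member in TPM (log axis) in the 4 libraries, with points for single libraries and lines for group means, grouped by complex. IKBKG fell from 121 to 66.0 TPM and TAB1 from 15.4 to 6.68 TPM, whereas both knockdown points of CHUK and of IKBKB stood above both control points.

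Tested with the quasi-likelihood F-test of edgeR, with p adjusted over all genes by Benjamini and Hochberg, 2 of the 10 members rose and 4 fell at an adjusted p under 0.05. Of all genes tested, 28.0% were called higher and 28.2% lower by the same rule, so the 60% of members past the threshold stood beside 56.2% of all genes. By the thresholds of the study, which ask for a 2-fold change and p under 0.05 before adjustment, 0 members were higher and 1, TAB1, was lower, where 11.8% of all genes were higher and 6.09% lower. In CPM, both knockdown libraries lay above both controls for 3 members and below them for 7, and among all genes tested 39.4% and 38.6% did not overlap in these directions. In TPM they lay above for 3 members and below for 5, and the groups of the other 2, SHARPIN and OTULIN, overlapped. The median log2 fold change of the members was -0.19, against 0.016 for all genes tested. Taken without its sign, the median was 0.27 for the members and 0.44 for all genes tested. At an adjusted p under 0.05, both IKK kinases rose and their regulatory subunit fell. TAK1 and its activator TAB1 also fell, and the chain-binding TAB2 did not pass the threshold. The linear ubiquitin genes were all lower in both knockdown libraries in CPM, but RBCK1 alone passed the threshold.

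**Figure D2:**
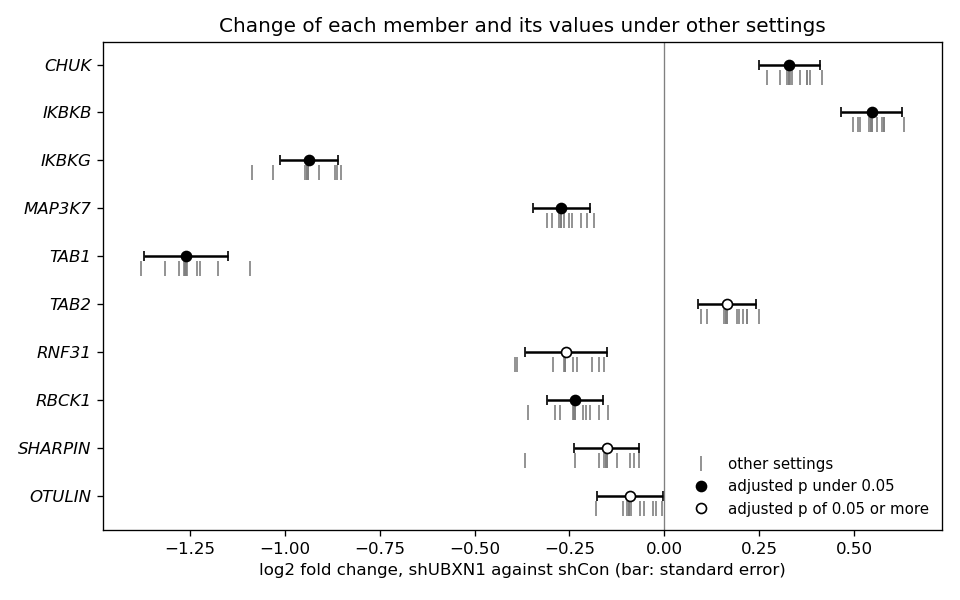
log2 fold change of each member in shUBXN1 against shCon, with its standard error, and below it as ticks the values under 13 other settings. TAB1 (-1.26) and IKBKG (-0.94) stood apart from the other 8 members, which lay between -0.27 and 0.55.

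In the IKK complex, CHUK encodes the kinase IKKα. CHUK (ENSG00000213341, chromosome 10, 100188300 to 100229596, minus strand) had counts of 1111 and 919 in the control libraries and of 1248 and 1197 in the knockdown libraries. Scaled to library size it was at 41.7 and 39.1 CPM in shCon and at 50.4 and 51.1 CPM in shUBXN1, so both knockdown libraries were above both controls. The log2 fold change was 0.33 (standard error 0.0793, edgeR adjusted p = 0.00272). Without the second shCon library the value was 0.27, which missed the threshold (edgeR adjusted p = 0.106).

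IKBKB, which encodes IKKβ, the main kinase for IκB in the canonical pathway, had the larger fold change of the kinases. IKBKB (ENSG00000104365, chromosome 8, 42271302 to 42332460, plus strand) was at 35.6 and 38.1 CPM in shCon and at 53.1 and 54.4 CPM in shUBXN1. The groups did not overlap, and the level in shUBXN1 was 146% of that in shCon (log2 fold change 0.55, standard error 0.0801, edgeR adjusted p = 4.65e-05). IKBKB passed the threshold under each of the 13 alternatives, with log2 fold changes of 0.50 to 0.63.

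IKBKG encodes NEMO, the subunit without kinase activity that binds linear ubiquitin and holds the kinases together. IKBKG (ENSG00000269335, X chromosome, 154541199 to 154565046, plus strand) had counts of 3328 and 2952 in the control libraries and of 1532 and 1616 in the knockdown libraries. The scaled levels were 125 and 126 CPM in shCon and 61.9 and 69.0 CPM in shUBXN1, and every knockdown value lay far below the control values. The log2 fold change was -0.94 (standard error 0.0775, edgeR adjusted p = 1.78e-07), which left 52.3% of the control level and missed the fold change of 2. IKBKG stayed past the adjusted threshold under each alternative, with log2 fold changes of -1.08 to -0.83. It passed the fold change of 2 after removal of the GC trend (-1.08) and without the second shUBXN1 library (-1.03).

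The value of IKBKG is uncertain where reads are shared, since the counting tool and its use of strand are not given in the sources used here. IKBKGP1, a pseudogene that is a near-identical copy of part of IKBKG, was at 31.0 and 33.7 CPM in shCon and at 22.6 and 23.5 CPM in shUBXN1 (log2 fold change -0.49). With the counts of IKBKG and IKBKGP1 summed, an analysis chosen after seeing the data, the log2 fold change was -0.83 (standard error 0.0756, edgeR adjusted p = 4.52e-07). How reads were divided between IKBKG and its pseudogene was not tested.

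**Figure D3:**
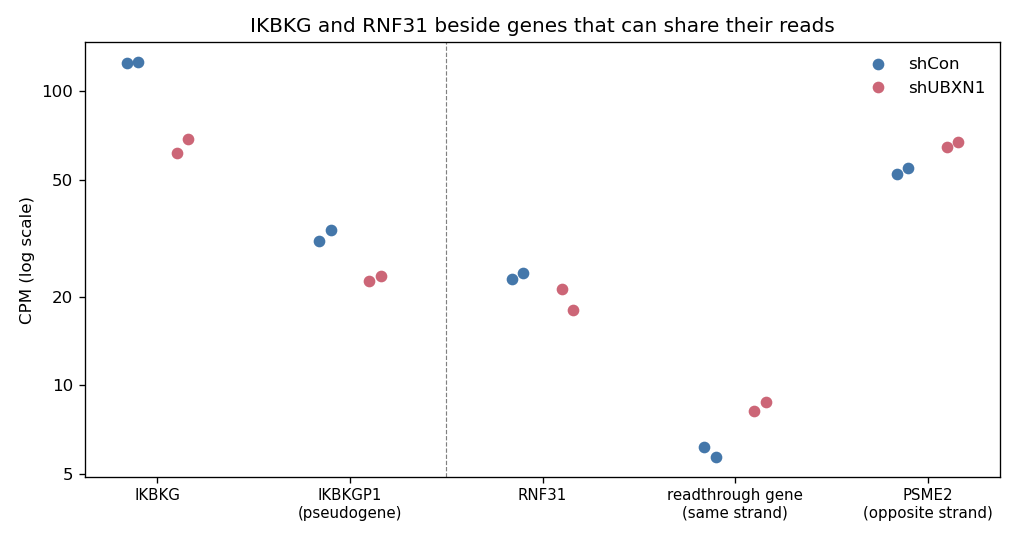
CPM (log axis) of IKBKG and RNF31 in each library beside the genes that can share their reads, with 2 points per group. IKBKG and IKBKGP1 were lower in shUBXN1, whereas RNF31 was lower and its readthrough gene and PSME2 were higher.

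In the TAK1 complex, MAP3K7 encodes the kinase itself. MAP3K7 (ENSG00000135341, chromosome 6, 90513573 to 90587086, minus strand) was at 60.2 and 58.5 CPM in shCon and at 48.9 and 49.5 CPM in shUBXN1. The groups did not overlap, and 82.8% of the control level was left (log2 fold change -0.27, standard error 0.0753, edgeR adjusted p = 0.00683). The call was lost without the first shCon library (log2 fold change -0.25, edgeR adjusted p = 0.0694), without the second (-0.31, edgeR adjusted p = 0.0514) and with limma on log2(TPM + 1) (-0.20, limma adjusted p = 0.0730).

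TAB1, the protein that binds the TAK1 kinase domain and promotes its autophosphorylation, had the largest fold change of all members. TAB1 (ENSG00000100324, chromosome 22, 39399778 to 39437060, plus strand) had counts of 644 and 583 in the control libraries and of 246 in each knockdown library. Its scaled levels were 24.2 and 24.8 CPM in shCon and 9.94 and 10.5 CPM in shUBXN1, with little spread inside either group. The log2 fold change was -1.26 (standard error 0.111, edgeR adjusted p = 3.44e-07), so that 41.8% of the control level was left. It was the one member called at a fold change of 2, and its log2 fold change was between -1.38 and -1.09 under the alternatives. No exon of another annotated gene overlaps those of TAB1.

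TAB2, the adaptor whose zinc finger binds lysine-linked chains, was at 69.9 and 65.0 CPM in shCon and at 73.7 and 77.5 CPM in shUBXN1. Its log2 fold change was 0.16 (standard error 0.0762, edgeR adjusted p = 0.0813), so the difference did not pass the threshold, although both knockdown libraries were above both controls. TAB2 (ENSG00000055208, chromosome 6, 149218641 to 149411613, plus strand) passed it under 5 of the 13 alternatives, among them total count scaling (0.25, edgeR adjusted p = 0.0113) and removal of the GC trend (0.21, edgeR adjusted p = 0.0312). TAB3, a paralogue of TAB2 that can take its place and was named after its values were seen, rose from 20.8 and 17.8 CPM to 29.1 and 27.5 CPM (log2 fold change 0.55, edgeR adjusted p = 0.000471).

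Within the linear ubiquitin ligase, RNF31 is the catalytic subunit that joins ubiquitin molecules head to tail. RNF31 (ENSG00000092098, chromosome 14, 24146683 to 24160660, plus strand) was at 22.9 and 24.1 CPM in shCon and at 21.2 and 18.0 CPM in shUBXN1. The knockdown libraries were both lower but differed from each other by more than the control libraries did, and the change missed the threshold (log2 fold change -0.26, standard error 0.109, edgeR adjusted p = 0.0557). Without the first shUBXN1 library, the higher of the pair, RNF31 passed it (-0.39, edgeR adjusted p = 0.00496), as it did after removal of the GC trend (-0.39, edgeR adjusted p = 0.00548). A readthrough gene on the same strand (ENSG00000259529) covers 51.5% of the exon bases of RNF31, and it was at 6.19 and 5.70 CPM in shCon and at 8.20 and 8.80 CPM in shUBXN1. With both summed, an analysis chosen after seeing the data, the log2 fold change of RNF31 was -0.066 (standard error 0.0923, edgeR adjusted p = 0.569). PSME2, a proteasome activator gene on the opposite strand, shares 3.22% of the exon bases and rose, with a log2 fold change of 0.30 (edgeR adjusted p = 0.00355). How reads were divided among these genes was not tested. Exons of CHUK, TAB2, RBCK1 and SHARPIN overlap those of any single neighbour by at most 2.37%, and those of IKBKB, MAP3K7, TAB1 and OTULIN by none.

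RBCK1, the ligase subunit that stabilises RNF31 and binds ubiquitin, was the one linear ubiquitin gene past the threshold. RBCK1 (ENSG00000125826, chromosome 20, 407498 to 432139, plus strand) was at 109 and 118 CPM in shCon and at 98.8 and 94.0 CPM in shUBXN1. Both knockdown values were below both controls (log2 fold change -0.24, standard error 0.0749, edgeR adjusted p = 0.0153). The call was lost without the second shCon library (-0.20, edgeR adjusted p = 0.262), with total count scaling (-0.15, edgeR adjusted p = 0.100) and with limma on log2(TPM + 1) (-0.17, limma adjusted p = 0.0948).

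SHARPIN, the adaptor subunit related to RBCK1, was at 42.2 and 38.4 CPM in shCon and at 36.7 and 35.8 CPM in shUBXN1. The log2 fold change of SHARPIN (ENSG00000179526, chromosome 8, 144098633 to 144108124, minus strand) was -0.15 (standard error 0.0851, edgeR adjusted p = 0.144), and it was -0.37 and past the threshold after removal of the GC trend (edgeR adjusted p = 0.00208). OTULIN, the deubiquitinase that cleaves linear chains, was at 35.7 and 35.5 CPM in shCon and at 31.8 and 35.1 CPM in shUBXN1. OTULIN (ENSG00000154124, chromosome 5, 14664664 to 14699850, plus strand) had the smallest change of the members, with a log2 fold change of -0.091 (standard error 0.0875, edgeR adjusted p = 0.397). What size of change could be detected with 2 libraries a group was not tested, so an absence of change cannot be stated for either gene.

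The balance between the mRNAs of partners was described by the ratio of their TPM inside each library. Protein was not measured in these data, so the ratios do not give the make-up of the complexes. IKBKG stood at 5.85 and 5.92 times the mean of CHUK and IKBKB in shCon and at 2.18 and 2.38 times in shUBXN1, which was 38.7% of the control ratio. The ratio of IKBKB to CHUK was 0.781 and 0.889 in shCon and 0.963 and 0.972 in shUBXN1, so the mRNAs of the kinases came nearer to each other. For TAB1 over TAB2 the ratio was 0.472 and 0.521 in shCon and 0.184 and 0.185 in shUBXN1, which was 37.2% of the control ratio. For TAB1 over MAP3K7, not drawn in the figure, it was 0.618 and 0.654 in shCon and 0.314 and 0.327 in shUBXN1, or 50.4%. TAB2 over MAP3K7 was 1.31 and 1.26 in shCon and 1.71 and 1.77 in shUBXN1. Groups overlapped for each ratio computed within the linear ubiquitin genes. RNF31 over RBCK1 was 0.222 and 0.216 in shCon and 0.227 and 0.202 in shUBXN1, SHARPIN over RBCK1 was 1.06 and 0.894 against 1.02 and 1.05, and OTULIN over RNF31 was 0.684 and 0.649 against 0.658 and 0.857. With 2 libraries against 2, the smallest two-sided p an exact permutation test can give is 0.333, so these ratios are descriptions. In bulk RNA, fewer cells that express a gene and less RNA of that gene per cell cannot be told apart.

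**Figure D4:**
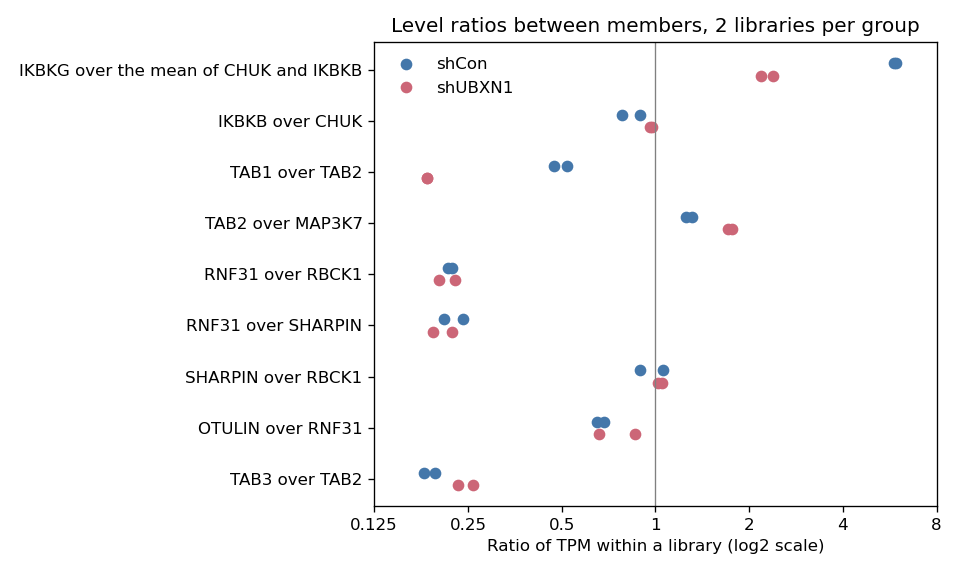
Ratio of TPM between partners within each library (log2 axis), 2 points per group. IKBKG over the kinases and TAB1 over TAB2 were lower in both shUBXN1 libraries, and the ratios among RNF31, RBCK1, SHARPIN and OTULIN overlapped between groups.

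Another 72 genes of the pathway were taken as 6 lists by role, all of them tested. At an adjusted p under 0.05, 26 rose and 23 fell, which was 68.1% of them, against 56.2% of all genes tested (28.0% higher and 28.2% lower). Their changes were nonetheless smaller than usual. The median log2 fold change without its sign was 0.36 for these genes and 0.44 for all genes tested. Among relatives and partners of the IKK kinases, 3 of 11 genes rose and 3 fell, with a median log2 fold change of 0.064. TBKBP1, an adaptor of the kinase TBK1, rose from 6.86 and 7.70 CPM to 17.7 and 16.5 CPM (log2 fold change 1.23, edgeR adjusted p = 2.41e-06), and TANK, another adaptor of this kind, had a log2 fold change of 0.49 (edgeR adjusted p = 0.000158). HSP90AB1 and HSP90AA1, chaperones that the IKK kinases need, fell by 0.73 and 0.51 on the log2 scale (edgeR adjusted p = 1.16e-05 and 0.000279). The kinases TBK1 and IKBKE had log2 fold changes of 0.12 and -0.040 and did not pass (edgeR adjusted p = 0.180 and 0.786).

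Genes that remove or edit linear and lysine-linked chains moved in both directions, with 7 of 13 higher, 3 lower and a median of 0.23. That was 76.9% of the list, against 56.2% of all genes tested. TNFAIP3, the ubiquitin-editing enzyme A20, rose from 13.9 and 13.2 CPM to 36.0 and 36.2 CPM (log2 fold change 1.41, edgeR adjusted p = 3.12e-08). CYLD, which cleaves the same linear chains as OTULIN, rose from 33.8 and 34.4 CPM to 69.7 and 76.2 CPM (1.10, edgeR adjusted p = 5.55e-08), and OPTN, a reader of linear chains, had a log2 fold change of 1.07 (edgeR adjusted p = 3.88e-08). SPATA2, which links CYLD to RNF31, was lower by contrast (-0.58, edgeR adjusted p = 0.000380). RNF11 and TNIP2, partners of A20, fell by 1.54 and 1.12 on the log2 scale (edgeR adjusted p = 1.13e-08 and 7.51e-08).

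Of the ubiquitin genes and the enzymes that load ubiquitin, 2 of 13 rose and 5 fell, with a median of -0.15. That was 53.8% of the list, against 56.2% of all genes tested. UBE2N, the conjugating enzyme for the lysine-linked chains that TAB2 binds, fell from 140 and 147 CPM to 95.8 and 105 CPM (log2 fold change -0.52, edgeR adjusted p = 4.80e-05), and the ubiquitin gene RPS27A had a value of -0.37 (edgeR adjusted p = 0.000670). UBA1, the main activating enzyme, and UBB, a polyubiquitin gene, rose by less, with log2 fold changes of 0.22 each (edgeR adjusted p = 0.0311 and 0.0399). UBE2L3, a conjugating enzyme that works with RNF31, was at -0.16 and did not pass (edgeR adjusted p = 0.114).

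Upstream of the complexes, 5 of 16 receptors, adaptors and ligases rose and 8 fell, with a median of -0.12. That was 81.25% of the list, against 56.2% of all genes tested. BIRC3 and IRAK2 had the smallest p among the rises, with log2 fold changes of 1.89 and 0.73 (edgeR adjusted p = 1.02e-09 and 5.47e-06). CARD10, a scaffold for IKK activation, fell by 0.83 on the log2 scale, and the receptor-proximal kinase IRAK1 fell by 0.73 (edgeR adjusted p = 1.26e-06 and 4.37e-06). Downstream of IKK, 6 of 8 NF-κB and IκB genes rose and 1 fell, with a median of 0.33, where the same rule called 28.0% of all genes higher and 28.2% lower. NFKBIA and NFKBIB, the IκB proteins that IKBKB phosphorylates, both had log2 fold changes of 0.69 (edgeR adjusted p = 3.46e-06 and 3.23e-05), and NFKB1 fell by 0.21 (edgeR adjusted p = 0.0358).

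In the MAP kinase branch below TAK1, 3 of 11 genes rose and 3 fell, with a median of 0.033. That was 54.5% of the list, against 56.2% of all genes tested. In this branch 4 genes passed the fold change of 2, 2 higher and 2 lower, where 11.8% of all genes were higher and 6.09% lower. Over all 72 genes of the 6 lists, 7 were higher and 4 lower by the same rule, so this branch held a large part of them. MAP2K3 and MAP2K6, the kinases that TAK1 uses to activate p38, fell from 65.4 and 70.3 CPM to 18.3 and 20.5 CPM and from 30.9 and 29.2 CPM to 11.3 and 10.3 CPM (log2 fold changes -1.81 and -1.48, edgeR adjusted p = 1.48e-09 and 5.60e-08). Of the genes for p38 kinases, MAPK12 and MAPK11 rose, with log2 fold changes of 1.40 and 1.16 (edgeR adjusted p = 1.18e-07 and 3.52e-06). MAPK14, whose product p38α binds TAB1 and which was named after its values were seen, was at 79.1 and 77.4 CPM in shCon and at 81.1 and 79.1 CPM in shUBXN1 and did not pass (log2 fold change 0.033, edgeR adjusted p = 0.723).

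**Figure D5:**
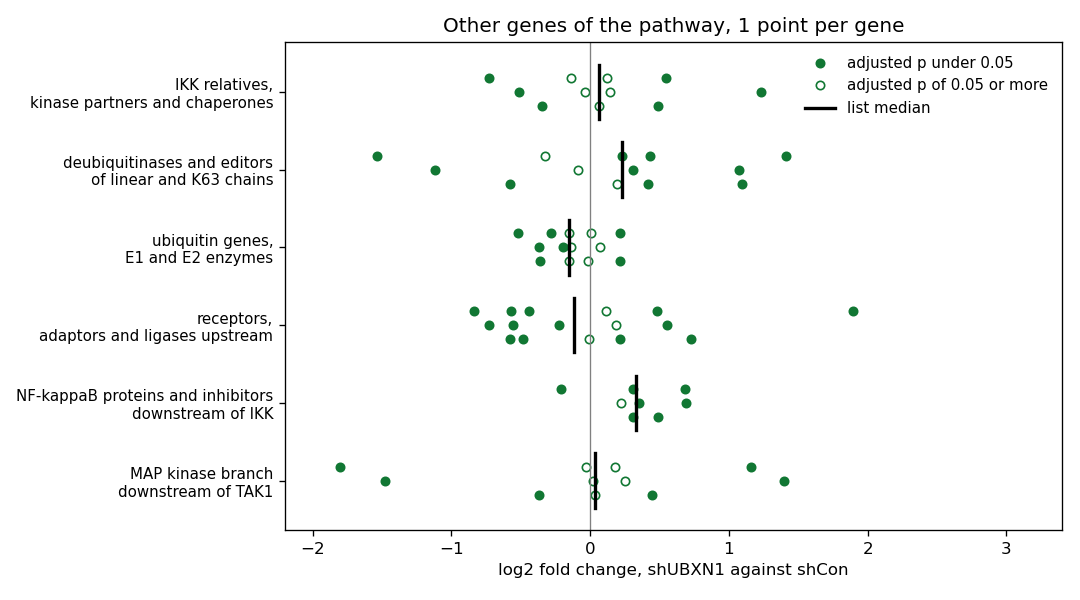
log2 fold change in shUBXN1 against shCon of 72 other genes of the pathway in 6 lists, with 1 point per gene, filled where the adjusted p was under 0.05, and a line at the median of each list. Rises and falls stood side by side in every list, and the NF-κB and IκB genes had the highest median (0.33).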

How the data were processed

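RNA-seq of MHCC97H cells gave 4 libraries, 2 per group, grouped by sample title. The authors deposited expected counts per Ensembl gene, not normalized, with a gene length, which is the authors' value. The paper names Hisat2, GRCh38, TPM and, for differential expression, limma, whereas the submitters' processing notes list HISAT2 2.0.4, StringTie 1.3.0 and GRCh37. The counting tool and strand setting are not given in the sources used here. The labels and the paper name different library kits. Positions are from GENCODE on GRCh38, and 99.7% of gene IDs matched a symbol.

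Counts were rounded, filtered with filterByExpr, scaled by TMM and fitted in edgeR 4.0.16 (R 4.3.3) with glmQLFit, then glmQLFTest, without a block. Standard errors are the log2 fold change over the square root of F. The scripts were tested on simulated data. Members, lists and tests were chosen with earlier results of these data known. Named genes were the members, UBXN1, genes that share their reads (1 item is not reported here), per list the 2 rises and 2 falls with the smallest p, and list genes past a fold change of 2. SPATA2, TBK1, IKBKE, UBE2L3, TAB3 and MAPK14 were named after their values were seen. Between replicates chi-square per degree of freedom was 3.65 in shCon and 7.77 in shUBXN1. Alternatives used DESeq2 1.42.0, limma 3.58.1, other scalings and filters, a GC correction, a block and each library left out.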

Additional observations from a re-analysis of the deposited data

How the results depend on the processing

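The alternatives, 13 planned for each member and 2 added, gave 132 values of the members, of which 0 changed sign, 116 kept their side of the threshold, 7 lost it and 9 gained it. Calls of higher members (2) ranged from 1 to 3 with each library left out, and calls of lower members (4) from 2 to 5, with 1 and 2 calls without the second shCon library. With limma on log2(TPM + 1) 2 members were lower and 3 higher, and after removal of the GC trend 6 were lower and 3 higher. Of the 16863 genes tested, limma on log2(TPM + 1) called 4742 higher and 3998 lower. Removal of the GC trend gave 4539 higher and 4869 lower, against 4727 and 4751 without it. At a fold change of 2 the lower members (1) numbered 1 to 2 with each library left out and 2 after removal of the GC trend, IKBKG being the second. Over all genes, the 2-fold rule gave 1028 higher and 524 lower genes with limma on log2(TPM + 1), against 1997 and 1027, and at least 10 counts in every library gave 1321 higher. With total count scaling the median change over all genes was 0.10 (log2) in place of 0.016. The causes of these differences were not tested.

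Same-numbered libraries deviated from their group means with a correlation of 0.039 across genes, and nothing in the labels pairs them. With a replicate block, 5 members were lower, since RNF31 passed the threshold, and 2 were higher. Over all genes the block called 5000 higher and 5023 lower at an adjusted p under 0.05, against 4727 and 4751. Without replicates beyond 2 per group, 2 residual degrees of freedom per gene limit how well the spread is known.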
